A study of Arabidopsis thaliana with 14 samples.

Results

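Mucilage genes of the seed coat were followed through the compartments of Arabidopsis thaliana seeds. The 4 genes are ARA12 (AT5G67360), which encodes the subtilase SBT1.7, the glycosyltransferase genes AT2G22900 and AT3G10320, and the peroxidase gene AT3G50990. They were chosen by name, with earlier results of these data known. Each was followed through the probe set that the platform annotation assigns to that gene alone, and each had 1 such probe set. They are 4 of 13356 genes with a probe set of their own in that annotation.

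Mucilage is a pectin-rich gel that the outermost cell layer of the Arabidopsis seed coat makes and stores under its outer wall during seed development. On contact with water the gel swells, breaks the outer wall and forms a halo around the seed. Glycosyltransferases in the Golgi build its pectin and hemicellulose, and enzymes of the cell wall, such as proteases, pectin methylesterases and peroxidases, set how firmly the wall holds it back.

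All plants were of the accession Ws-0, were 38 to 46 days old and grew under continuous light, and no plant was mutant or treated. Seeds were at the mature green stage, in which cotyledons fill the seed and no seed coat layer has collapsed. Tissue was cut by laser from paraffin sections of fixed siliques, and the amplified RNA was hybridised to Affymetrix ATH1 arrays. The 14 arrays formed 7 groups of 2 biological replicates. Filial tissue was represented by embryo proper and by 3 endosperm parts (micropylar, peripheral and chalazal), maternal tissue by seed coat and chalazal seed coat, which makes 6 compartments, and whole seeds were cut from sections as a further group. The labels name no cell layer of the seed coat samples, and whether the replicates of a group came from separate plants is not stated. P-values therefore measure the spread between these samples.

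Each value is an array signal on a linear scale, and an array has no read depth, so the number of arrays limits the precision. For tests, log2 signals were used, with any signal under a floor of 23.4 set to that floor. Differences are given on the log2 scale as estimate ± SE from a limma fit to all 14 arrays, and were called when the p adjusted by the Benjamini-Hochberg method over 14252 tested probe sets was under 0.05. Means of signals are given ± SD (n = 2). All 4 genes were among the probe sets tested. ARA12 and AT2G22900 passed the filter on dim probe sets in 7 of 7 groups. AT3G10320 and AT3G50990 passed it through the 2 seed coat groups alone, so a high value there was a condition for their being tested.

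The captured tissues were checked with marker genes of other seed parts. A marker was measured only if the platform annotation assigns a probe set to that gene alone. That annotation names no gene for 8730 probe sets, so an unmeasured marker is not necessarily missing from the array. Of 12 embryo markers, 3 had such a probe set. Their summed signal was 29728 and 35575 in the embryo, 584.9 to 7488 in the endosperm parts, 65.5 and 230.4 in chalazal seed coat, and 315.8 and 503.9 in seed coat. AT1G03890 made up most of that sum, with 28487 and 25187 in the embryo and 47.8 to 296.3 on the 4 arrays of both seed coat parts. STOMAGEN lay at 11.1 to 32.9 and YAB3 at 6.56 to 174.7 on those 4 arrays, against at least 1557 in the embryo. Of 12 seed coat markers 4 were measured, with summed signals of 2444 and 2682 in seed coat, 2187 and 4853 in chalazal seed coat, 850.0 to 2784 in the endosperm parts and 224.6 and 229.6 in the embryo. BAN and DFR, enzymes of the tannin pathway, had 357.4 and 1189, and 932.0 and 2907, in chalazal seed coat, but BAN stood at 24.0 and 24.8 and DFR at 184.7 and 292.1 in seed coat. DELTA-VPE, a protease known from dying seed coat layers, had 1736 and 2102 in seed coat but also 534.7 to 2153 in the endosperm parts. UGT80B1 gave 737.2 and 25.2 in seed coat, with a mean log2 signal of 7.09 there, 8.01 in the endosperm parts and 6.92 in the embryo. The summed signals in seed coat lay within the range of the endosperm parts, so that sum does not set seed coat apart from endosperm here. Of 12 endosperm markers 2 were measured, AGL62 and IKU2, and their summed signal was 14.4 to 123.6 in the endosperm parts and 110.2 to 187.1 in both seed coat parts, so they do not mark the endosperm here.

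The seed coat arrays also differed in some technical measures. Their 9 hybridisation controls, bacterial and phage sequences added to each sample, had geometric mean signals of 82313 and 117011 against 33513 to 54626 on the other arrays. Median signals were 194.4 and 202.8 in seed coat and 134.0 to 190.6 elsewhere, and replicate arrays correlated least in seed coat (Pearson r = 0.812 over the tested probe sets) and from 0.864 to 0.929 in the other groups. Signal ratios of the 3' to the 5' actin probe sets were 4.13 and 7.36 in seed coat and 5.49 to 16.9 elsewhere, so only the ratio of 4.13 lay outside the range of the other arrays. The same ratios for GAPDH (4.55 and 6.58 in seed coat) and UBQ (6.37 and 5.74) lay within the range of the other arrays. The part of these measures in the results below was not tested, but each result was also computed after scaling each array by its median or by its hybridisation controls.

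ARA12 encodes a secreted subtilisin-like protease, known from Arabidopsis to be needed for the release of mucilage when seeds are wetted. Its signal was 19636 and 11495 in seed coat, and 5423 and 10122 in chalazal seed coat. The endosperm parts gave 1557 and 1490 (peripheral), 1227 and 1517 (micropylar), and 679.1 and 1440 (chalazal), and the embryo 411.7 and 645.6. The 4 arrays of both seed coat parts lay above all 8 arrays of embryo and endosperm, and the embryo arrays were the lowest. Whole seeds stood between these ranges, at 4968 and 4000. Divided by the array median, ARA12 was 78.9 ± 31.4 times the median in seed coat, 49.0 ± 12.4 times in chalazal seed coat and 3.51 ± 1.39 times in the embryo.

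AT2G22900, a glycosyltransferase gene known from Arabidopsis to be needed for the galactose side chains of mucilage glucomannan, was measured above the floor on every array and was highest in the seed coat proper. It had signals of 6635 and 9260 there, and 1382 and 3396 in chalazal seed coat. The embryo gave 1462 and 1080, the micropylar endosperm 1417 and 834.1, the peripheral endosperm 637.9 and 1061, and the chalazal endosperm 1103 and 1549. Chalazal seed coat replicate 1 fell within the range of embryo and endosperm, whereas replicate 2 and both seed coat arrays lay above it. Whole seeds, at 1834 and 1871, were the group whose replicates lay closest together. Relative to the array median the values were 39.9 ± 8.15 in seed coat, 14.8 ± 6.46 in chalazal seed coat and 5.80 ± 1.61 to 8.74 ± 2.30 in embryo and endosperm.

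AT3G10320, a glycosyltransferase gene known from Arabidopsis for its part in adding xylose branches to mucilage pectin, was measured above the floor mainly in the seed coat. The signal was 533.8 and 413.8 in seed coat and 340.1 and 391.1 in chalazal seed coat. Both arrays of the embryo (10.9 and 5.88) and of the peripheral endosperm (13.7 and 10.8) were under the floor, as was 1 array each of the micropylar (4.16 and 38.9) and chalazal endosperm (11.7 and 27.3). The lowest array of the seed coat parts was above every array of embryo and endosperm, and 6 of those 8 arrays were at the floor. Whole seeds gave 68.6 and 51.3. After division by the array median both seed coat parts came out level, at 2.39 ± 0.50 in seed coat and 2.38 ± 0.21 in chalazal seed coat.

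AT3G50990 encodes a secreted class III peroxidase (PER36 in RefSeq), known from Arabidopsis to loosen the outer wall of the mucilage-storing cells. Its signal was 310.0 and 337.8 in seed coat, and 206.7 and 321.3 in chalazal seed coat. Peripheral endosperm had 48.9 and 65.0 and was the one other compartment with both arrays above the floor. The embryo gave 3.94 and 64.0, the micropylar endosperm 7.04 and 3.96, the chalazal endosperm 20.8 and 5.05, and whole seeds 62.6 and 24.6. Signals in the seed coat parts did not overlap those in embryo and endosperm, of which 5 of 8 were at the floor. Divided by the array median, seed coat had 1.63 ± 0.05 and chalazal seed coat 1.68 ± 0.21.

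**Figure D1:**
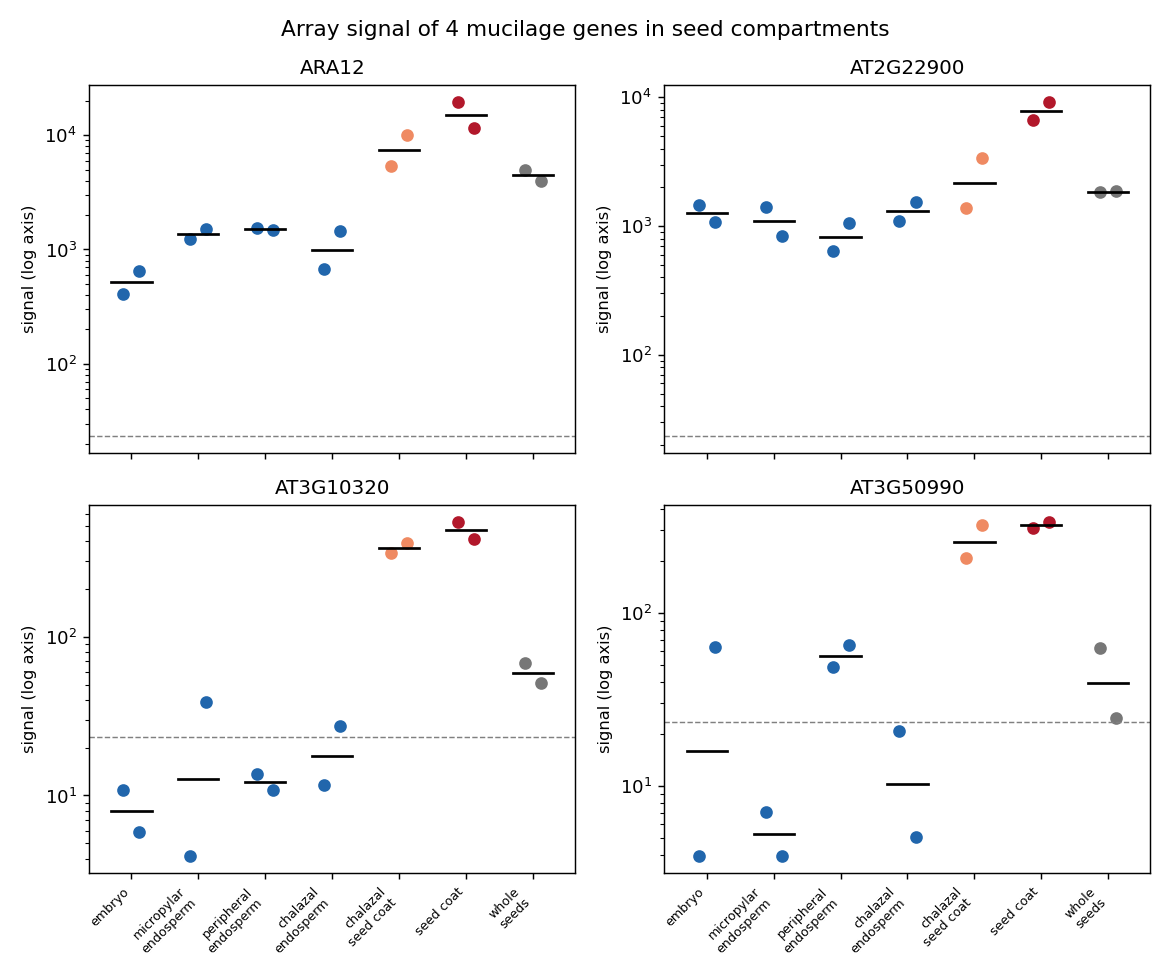
Signal of the 4 mucilage genes on each of the 14 arrays (log axis), by compartment. Points are arrays, black bars the geometric mean of a group (n = 2) and the dashed line the floor of 23.4, and the seed coat and chalazal seed coat points lie highest in each panel, except that 1 chalazal seed coat array of AT2G22900 lies among the embryo and endosperm points.

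Maternal and filial tissue were compared first, as the mean of seed coat and chalazal seed coat against the mean of embryo and 3 endosperm parts. All 4 genes were called higher in the maternal tissue. ARA12 was 10.4-fold higher (log2 difference 3.38 ± 0.25, limma adjusted p = 3.30e-08), and AT2G22900 3.74-fold higher (1.90 ± 0.26, limma adjusted p = 2.22e-05). Because most filial arrays were at the floor, the difference is a lower limit for AT3G10320, at least 16.3-fold (4.02 ± 0.40, limma adjusted p = 8.46e-07), and for AT3G50990, at least 8.73-fold (3.13 ± 0.45, limma adjusted p = 3.68e-05). Of all probe sets tested 22.0% were called higher, 22.7% lower and 44.7% in either direction in this comparison, so a call alone was common. All 4 arrays of the seed coat parts lay above all 8 filial arrays for ARA12, AT3G10320 and AT3G50990, which held for 9.05% of the probe sets tested. AT3G10320 and AT3G50990 were tested because they were high in the seed coat parts, so neither their calls nor this separation are read against that share. In whole tissue pieces such as these, fewer cells of a type and less RNA per cell cannot be told apart.

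These 4 calls were kept under each of 21 alternatives, which include the loss of any single array. Scaling by hybridisation controls, which lowered the median over the tested probe sets by 0.68, left log2 differences of 2.68 for ARA12, 1.21 for AT2G22900, 3.43 for AT3G10320 and 2.45 for AT3G50990. Measured from that lowered median, these are 3.38, 1.91, 4.13 and 3.15. Such scaling moves all probe sets of an array alike. Apart from the floor, measuring from the median therefore takes the scaling back out and is no separate check. With each array divided by its median the 4 differences were 3.13, 1.65, 3.83 and 2.92, in the same order.

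The peripheral endosperm is the filial layer that adjoins the seed coat, and seed coat was compared with it directly. The signal was higher in seed coat for ARA12 (3.30 ± 0.41, limma adjusted p = 3.37e-05), AT2G22900 (3.25 ± 0.43, limma adjusted p = 5.82e-05), AT3G10320 (at least 20.1-fold, 4.33 ± 0.66, limma adjusted p = 1.97e-04) and AT3G50990 (2.52 ± 0.74, limma adjusted p = 0.0188). The share of probe sets called higher was 12.6%, lower 14.1% and in either direction 26.7%. AT3G10320 and AT3G50990 were tested because they were high in the seed coat parts, so their calls are not read against that share. The call on AT3G50990 was lost without any of the 4 arrays compared (log2 difference 2.32 to 2.72, limma adjusted p = 0.061 to 0.11), with no floor (2.52, limma adjusted p = 0.21) and with hybridisation control scaling (0.98, limma adjusted p = 0.28).

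Within the seed coat, 1 of the 4 genes was called. AT2G22900 was 3.62-fold higher in seed coat than in chalazal seed coat (1.86 ± 0.43, limma adjusted p = 0.00890), in a comparison where 7.75% of probe sets were called higher, 7.14% lower and 14.9% in either direction. ARA12 differed by 1.02 ± 0.41 (limma adjusted p = 0.11), AT3G10320 by 0.37 ± 0.66 (limma adjusted p = 0.76) and AT3G50990 by 0.33 ± 0.74 (limma adjusted p = 0.81), none of which was called. For ARA12 and AT3G10320 both seed coat signals as deposited were nevertheless above both chalazal ones. This held for 28.4% of the probe sets tested, a share not read for AT3G10320, which was tested because it was high in these groups. Divided by the array median the arrays overlapped, at 101.0 and 56.7 in seed coat against 40.2 and 57.8 in chalazal seed coat for ARA12. For AT3G10320 these values were 2.75 and 2.04 against 2.52 and 2.23. The standard errors leave room for sizeable differences, and whether the difference of AT2G22900 exceeds those of the other genes was not tested. Set against the chalazal difference within the endosperm, the chalazal difference within the seed coat was called lower for AT2G22900 (-2.32 ± 0.57, limma adjusted p = 0.0247) and was not called for the other genes. That test called 6.16% of probe sets, 3.49% higher and 2.67% lower, and the call was lost under 7 of 21 alternatives.

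The call on AT2G22900 depended on single arrays and on the scaling. It was lost without chalazal seed coat replicate 1 (1.21, limma adjusted p = 0.13) and without seed coat replicate 2 (1.61, limma adjusted p = 0.065). Division of each array by its median, which lowered the median difference by 0.35, gave 1.49 (limma adjusted p = 0.0168). Hybridisation control scaling lowered the median difference by 1.16 and gave 0.64 (limma adjusted p = 0.24), which is 1.74 above the median under that scaling. Under it the differences of ARA12 (-0.19), AT3G10320 (-0.85) and AT3G50990 (-0.88) turned negative, while each stayed above the median of all probe sets (-1.10). Because the scaling moves all probe sets of an array alike, distances from the median hardly change under it and are no check on it. Division by the median turned AT3G10320 (-0.0034) and AT3G50990 (-0.04) to values near 0.

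**Figure D2:**
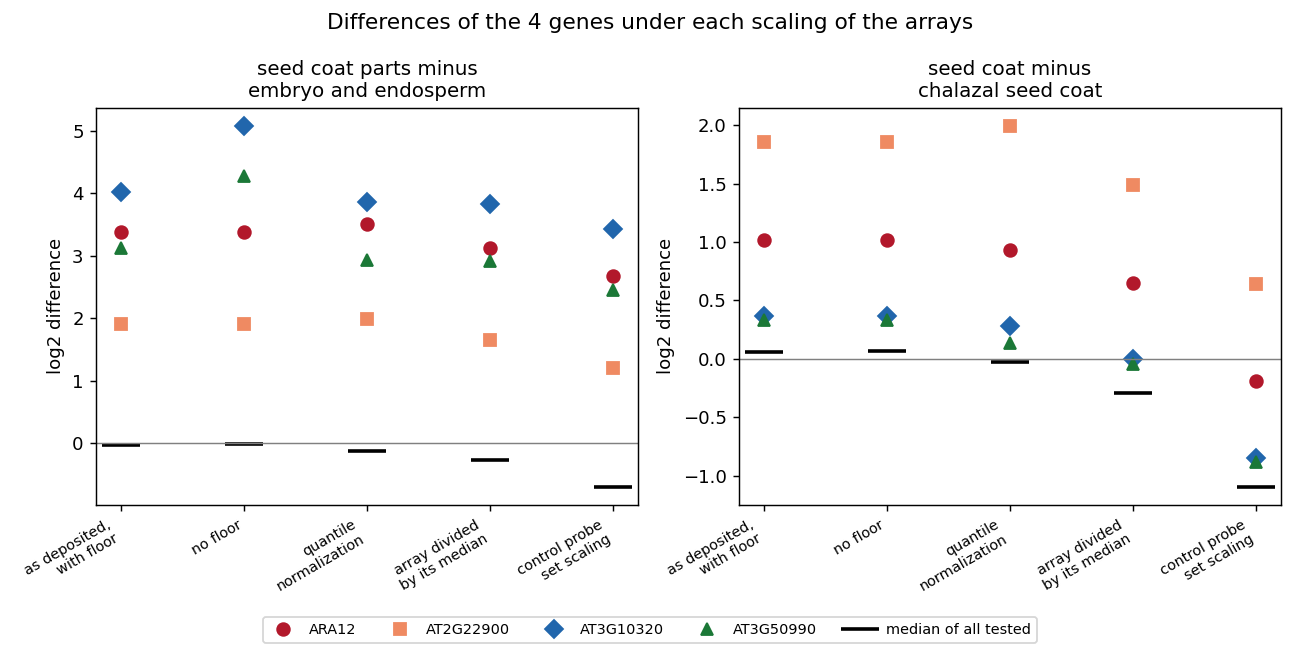
Log2 differences of the 4 genes (symbols) in both comparisons, under 5 treatments of the arrays, with the median of all tested probe sets as a black bar. In the left panel the 4 genes stay above 0 throughout, and in the right panel ARA12, AT3G10320 and AT3G50990 fall below 0 with hybridisation control scaling, where the median is -1.10.

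Among the filial compartments, ARA12 alone of the 4 was called between embryo and endosperm. It was 2.47-fold lower in the embryo than in the mean of the endosperm parts (-1.30 ± 0.33, limma adjusted p = 0.0123), and both embryo arrays lay under each of the 6 endosperm arrays. The share of probe sets called lower was 8.41%, higher 7.71% and in either direction 16.1%. Without embryo replicate 1 the difference was -0.98 (limma adjusted p = 0.22). AT2G22900 differed by 0.25 ± 0.35 (limma adjusted p = 0.71). For AT3G10320 and AT3G50990, 6 and 5 of the 8 filial arrays were at the floor, and no order is given there.

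The order of compartments was read from all 15 pairs of the 6 compartments. ARA12 ran from seed coat to chalazal seed coat, peripheral, micropylar and chalazal endosperm and embryo, with 10 pairs called, as many as or more than 10 being called for 3.19% of probe sets. Of its 5 steps between neighbours only that from chalazal seed coat to peripheral endosperm was called (2.28 ± 0.41, limma adjusted p = 4.87e-04), a pair in which 14.8% of probe sets were called in that direction. For AT3G10320, 8 pairs were called, which are the 8 pairs of a seed coat part with a filial compartment, and the step from chalazal seed coat to micropylar endosperm was 3.59 ± 0.66 (limma adjusted p = 6.39e-04, a lower limit with 1 array at the floor), where 14.7% of probe sets were called in that direction. AT3G50990 had the corresponding 8 pairs called, with a step of 2.19 ± 0.74 from chalazal seed coat to peripheral endosperm (limma adjusted p = 0.0334). At least 8 pairs were called for 12.6% of probe sets. Nothing is read from that share, or from the shares for single steps, for AT3G10320 and AT3G50990, which were tested because they were high in both seed coat parts. For AT2G22900 6 pairs were called, with at least 6 called for 22.2% of probe sets. Seed coat stood above each of the other 5 compartments, the step to chalazal seed coat was called, though not under the 3 alternatives given above, and the next, from chalazal seed coat to chalazal endosperm, was not (0.73 ± 0.43, limma adjusted p = 0.24). Chalazal seed coat was called above peripheral endosperm (1.40 ± 0.43, limma adjusted p = 0.0206).

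Whole seeds give the level that is seen when the compartments are not separated. In seed coat ARA12 was 3.37-fold (1.75 ± 0.41, limma adjusted p = 0.00572), AT2G22900 4.23-fold (2.08 ± 0.43, limma adjusted p = 0.00272), AT3G10320 7.92-fold (2.99 ± 0.66, limma adjusted p = 0.00421) and AT3G50990 8.25-fold (3.04 ± 0.74, limma adjusted p = 0.00743) above whole seeds, where 10.1% of probe sets were called higher, 14.1% lower and 24.2% in either direction. The calls on AT3G10320 and AT3G50990, which were tested because they were high in the seed coat parts, are not read against these shares. The comparisons with chalazal seed coat, peripheral endosperm and whole seeds share the seed coat arrays. With no floor AT3G10320 (limma adjusted p = 0.10) and AT3G50990 (limma adjusted p = 0.14) were not called, and with hybridisation control scaling AT3G10320 alone was (1.89). Without whole seeds replicate 2 ARA12 (1.60, limma adjusted p = 0.064) and AT3G50990 (2.37, limma adjusted p = 0.094) were lost, and without seed coat replicate 1 ARA12 (1.37, limma adjusted p = 0.07).

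The pathway around these genes was described with 52 loci of mucilage biology, listed by role, of which 14 had a probe set of their own and 13 were tested. The other 38 had no probe set of their own in the annotation used and were not analysed here, which does not mean that the array lacks them. Outside the 4 genes, 9 of 48 loci were tested. In maternal against filial tissue 6 of these 9 were called higher, 1 lower and 2 not called, against shares over all probe sets of 22.0% higher and 22.7% lower. Their median log2 difference was 1.24, against -0.03 for all probe sets tested. The list was drawn up with earlier results of these data known, so its counts and median are a description and no independent support. The 2 not called were SEU, a transcriptional co-regulator (0.12 ± 0.24), and AT5G04160, listed for pectin synthesis (-0.71 ± 0.51). AT5G04160 was called lower with hybridisation control scaling (-1.41, limma adjusted p = 0.0207) and without chalazal seed coat replicate 2 (-1.68, limma adjusted p = 8.54e-04), and its difference was 0.27 without chalazal seed coat replicate 1, which read 48.8 against 727.7 in replicate 2.

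AT5G15740 is listed for pectin synthesis. Its signals were 15474 and 15947 in seed coat, 905.0 and 3449 in chalazal seed coat, 1808 and 1618 in whole seeds, and 77.4 to 328.9 on the 8 arrays of embryo and endosperm. It was 29.8-fold higher in maternal tissue (4.90 ± 0.39, limma adjusted p = 7.59e-08) and 8.89-fold higher in seed coat than in chalazal seed coat (3.15 ± 0.64, limma adjusted p = 0.00404), the latter not called without chalazal seed coat replicate 1 (2.19, limma adjusted p = 0.071). AT1G28240 had 724.6 and 779.3 in seed coat, 308.8 and 346.9 in chalazal seed coat and 115.0 to 380.4 in embryo and endosperm. The chalazal seed coat arrays thus lay within the filial range and the seed coat arrays above it. Its maternal difference of 1.24 ± 0.35 was called (limma adjusted p = 0.00779) but lost with hybridisation control scaling (0.55, limma adjusted p = 0.20), and that within the seed coat, 1.20 ± 0.57, was not (limma adjusted p = 0.17).

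Among the loci listed for wall modification and release, AT1G23200 had 8202 and 6932 in seed coat, 1200 and 3122 in chalazal seed coat and 33.1 to 271.2 in embryo and endosperm. The maternal difference was 5.23 ± 0.40 (37.5-fold, limma adjusted p = 4.50e-08), with no overlap between arrays. Within the seed coat it was 1.96 ± 0.65 and not called (limma adjusted p = 0.053), but it was called with quantile normalization (2.12, limma adjusted p = 0.0392), without either embryo replicate (1.96, limma adjusted p = 0.0278 and 0.0308) and without chalazal seed coat replicate 2 (2.65, limma adjusted p = 0.0344). AT5G49180 had 3594 and 2855 in seed coat, but 452.8 and 852.0 in chalazal seed coat, which overlapped the 450.4 to 938.6 of embryo and endosperm. This gene was 5.16-fold higher in seed coat than in chalazal seed coat (2.37 ± 0.40, limma adjusted p = 0.00102), a call kept under each of the 21 alternatives. The maternal difference of 1.13 ± 0.24 (limma adjusted p = 0.00125) was not called with hybridisation control scaling (0.43, limma adjusted p = 0.18). AT1G56100, with signals of 12.3 to 407.7, was not tested, because no group had both of its arrays above the array median.

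TBL38, also listed for wall modification and release, followed another pattern. The highest signals were in the embryo (5959 and 6656), followed by chalazal seed coat (1587 and 4237), with 1080 and 265.8 in seed coat and 38.9 to 177.3 in the endosperm parts. TBL38 was lower in seed coat than in chalazal seed coat (-2.27 ± 0.60, limma adjusted p = 0.0193), a call that was lost without chalazal seed coat replicate 2 (-1.57, limma adjusted p = 0.16) or without seed coat replicate 2 (-1.26, limma adjusted p = 0.19). Between embryo and endosperm it differed by 6.50 ± 0.49 (limma adjusted p = 1.32e-07). The maternal call of 2.46 ± 0.37 (limma adjusted p = 5.17e-05) therefore averages a high embryo with low endosperm parts.

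Of 20 listed regulators 3 were tested, and in maternal against filial tissue 1 was called higher, 1 lower and 1 was not called. The background shares for this comparison are 22.0% (higher) and 22.7% (lower), and 3 genes are too few to set against them. AGL18, a MADS domain transcription factor, had 13381 and 11523 in chalazal seed coat, 5301 and 4522 in seed coat, 866.2 to 2832 in the endosperm parts and 359.5 and 226.5 in the embryo. It was called higher in maternal tissue (2.98 ± 0.24, limma adjusted p = 8.05e-08) and lower in seed coat than in chalazal seed coat (-1.34 ± 0.39, limma adjusted p = 0.031), the latter lost without any of the 4 arrays compared (-1.46 to -1.23, limma adjusted p = 0.062 to 0.16) and with no filter (limma adjusted p = 0.059). AT1G76880 was called lower in maternal tissue (-1.48 ± 0.55, limma adjusted p = 0.0376), but its seed coat arrays read 501.1 and 8.40, and the call was lost under 13 of 21 alternatives, with a difference of -0.38 (limma adjusted p = 0.32) without seed coat replicate 2. SEU ranged from 652.1 to 2393 over all 14 arrays, and its small differences in both comparisons took the opposite sign after division by the median (-0.13 and -0.32) and with hybridisation control scaling (-0.57 and -1.16, the latter with a limma adjusted p of 0.04).

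**Figure D3:**
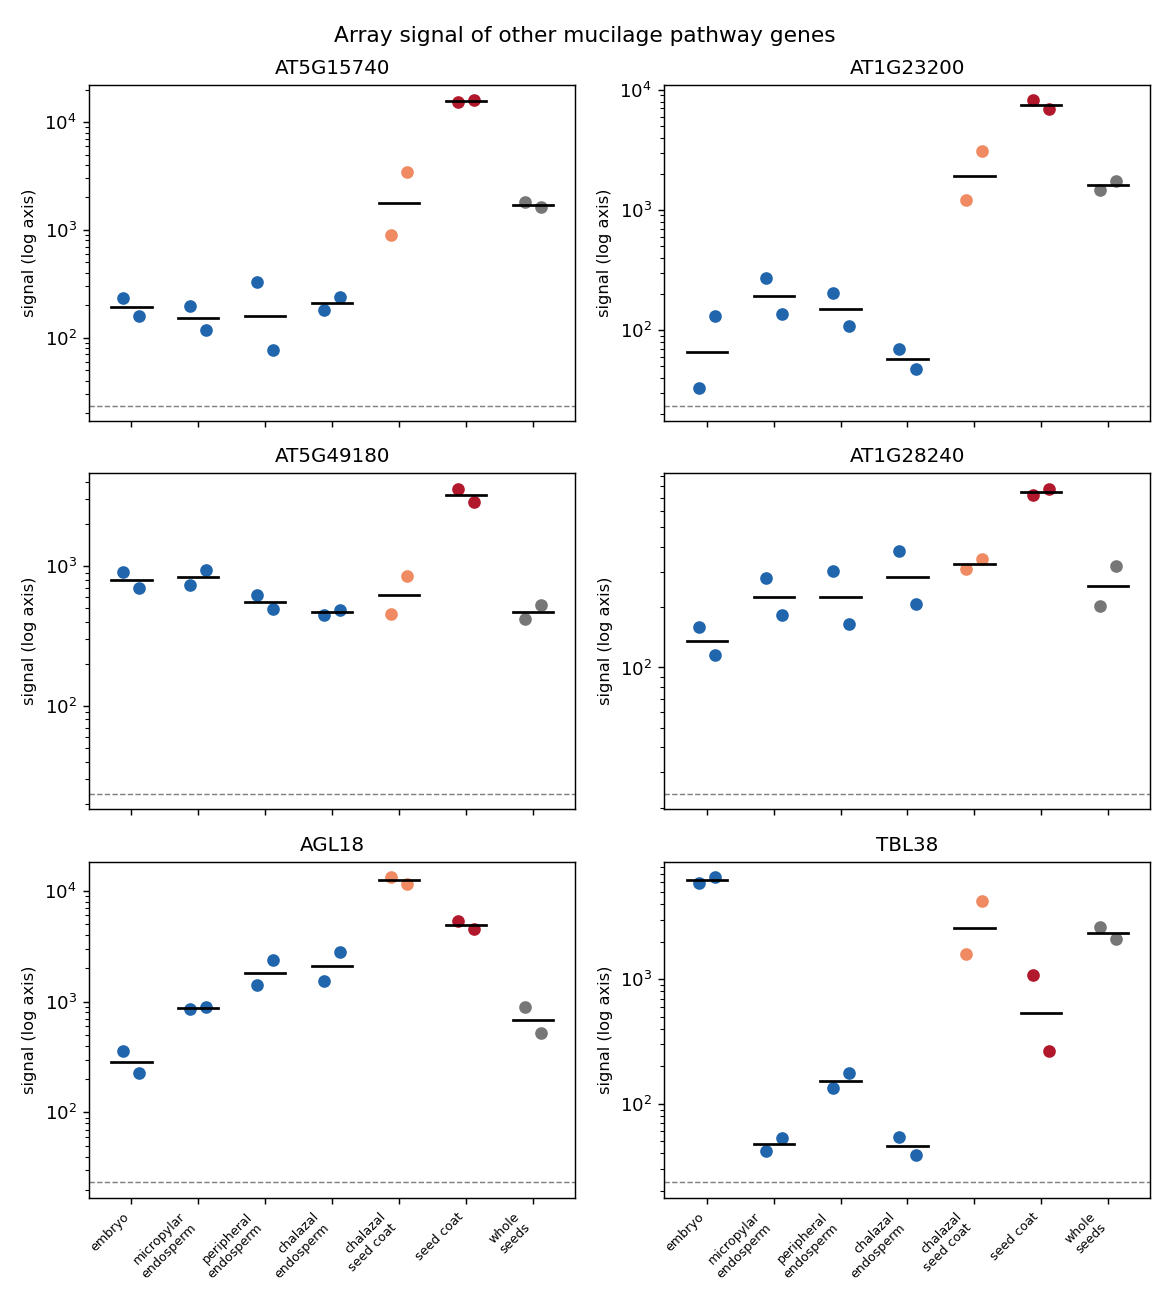
Signal of 6 other mucilage pathway genes on each of the 14 arrays (log axis), by compartment, drawn as for the 4 genes. AT5G15740, AT1G23200, AT5G49180 and AT1G28240 are highest in seed coat, AGL18 in chalazal seed coat and TBL38 in the embryo.

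In seed coat against chalazal seed coat, the 13 tested loci of the pathway, the 4 genes included, gave 3 called higher, 2 called lower and 8 not called, against shares over all probe sets of 7.75% higher and 7.14% lower. The higher ones were AT2G22900, AT5G15740 and AT5G49180, and the lower ones AGL18 and TBL38. Without chalazal seed coat replicate 1, and likewise without seed coat replicate 2, 2 of the 13 were called. AT1G76880 was not called (-2.58 ± 0.90) but was without seed coat replicate 1 (-4.79, limma adjusted p = 7.27e-05), with the replicate block, with division by the median and with hybridisation control scaling, and AT5G04160 (2.16 ± 0.83) was called without chalazal seed coat replicate 2 (4.11, limma adjusted p = 3.51e-04). The median difference of the 13 was 1.02, against 0.06 for all probe sets tested. The counts that follow include AT3G10320 and AT3G50990, which were tested because they were high in the seed coat parts. Against peripheral endosperm 10 were called higher and 1 lower in seed coat (12.6% and 14.1% of all probe sets), with 7 of the 13 called in either direction without seed coat replicate 1. Against whole seeds 8 were called higher and 1 lower (10.1% and 14.1% of all probe sets), with 5 called without whole seeds replicate 2.

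**Figure D4:**
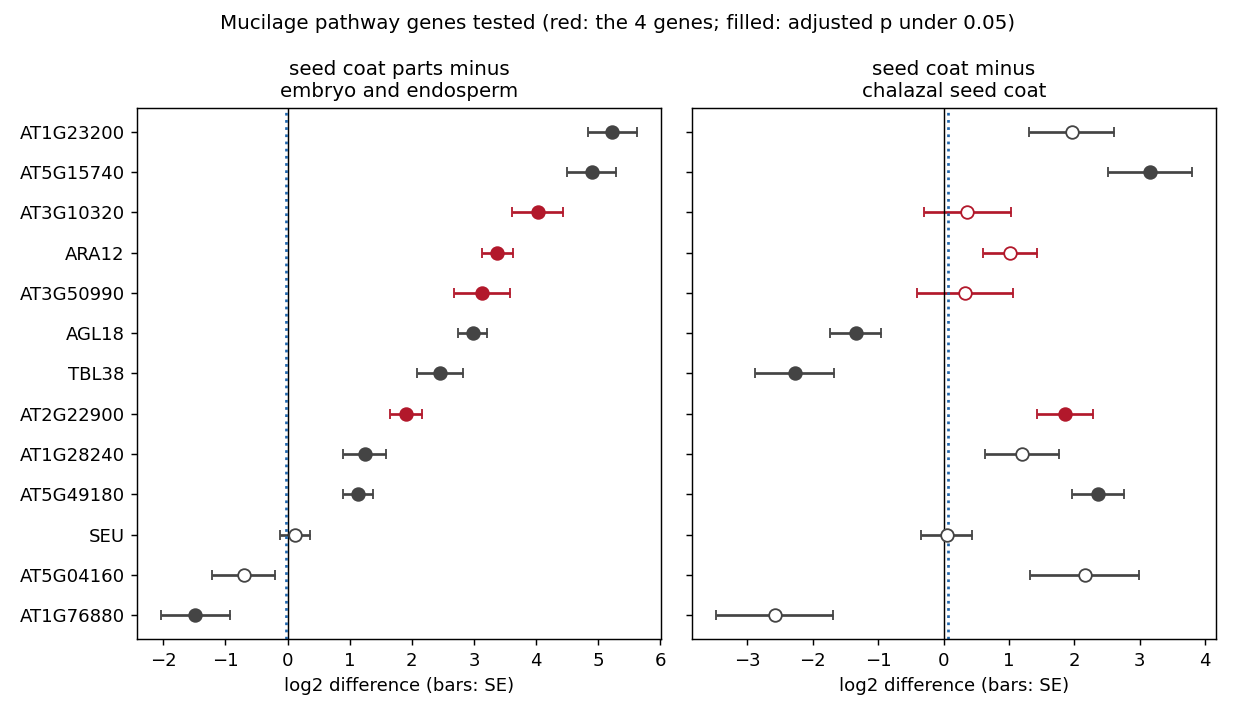
Log2 differences with SE of the 13 tested mucilage genes in maternal against filial tissue (left) and in seed coat against chalazal seed coat (right), with filled points called at an adjusted p under 0.05 and the dotted line at the median of all tested probe sets. On the left the 4 genes (red) lie between 1.90 and 4.02, and on the right AT2G22900 alone among them is filled, at 1.86.

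The profiles of the 4 genes over the 12 compartment arrays were alike to different degrees. The Pearson r of log2 signals was 0.941 between ARA12 and AT3G10320, 0.919 between AT3G10320 and AT3G50990, and 0.894 between ARA12 and AT3G50990. With AT2G22900 it was 0.787 for ARA12, 0.807 for AT3G10320 and 0.746 for AT3G50990. These values describe arrays that share compartments and replicates, and values raised to the floor enter them as ties. AT3G10320 and AT3G50990 were tested because they were high in both seed coat parts, so nothing is read from the height of their r values. Among the other listed genes AT1G23200 had r of 0.953 with ARA12 and 0.933 with AT3G10320, and AT5G15740 had 0.920 with AT2G22900 and 0.911 with AT3G10320.

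The genes most like each of the 4 were taken from 7819 tested probe sets of 1 gene each, as the 5 with the highest r over the 12 arrays. For ARA12 these were AT1G19190 (0.980), AT1G72220 (0.980), AT1G62070 (0.969), AT2G29995 (0.963) and AT3G51000 (0.963). AT1G62070 reached 92803 and 110939 in seed coat, 4931 and 26705 in chalazal seed coat, and at most 1100 on an array of embryo or endosperm. For AT3G10320 they were AT5G63180 (0.993), AT1G54280 (0.988), RING1 (0.987), AT3G14760 (0.986) and AT5G58930 (0.983). AT5G63180 gave 6128 and 4977 in seed coat and 2422 and 2543 in chalazal seed coat, and all 8 arrays of embryo and endosperm were at the floor, the highest at 18.3.

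For AT3G50990 the most similar were AT4G18950 (0.976), AT3G06840 (0.944), RING1 (0.940), AT5G63180 (0.937) and AT2G46000 (0.936), so RING1 and AT5G63180 stood on the lists of both AT3G10320 and AT3G50990. For AT2G22900 they were AT1G20550 (0.953), SIRB (0.944), AT2G29370 (0.942), AT4G33180 (0.940) and AT4G17660 (0.936). AT1G20550 had 6321 and 4886 in seed coat against 855.5 and 1544 in chalazal seed coat and 120.3 to 318.1 in embryo and endosperm. None of the 5 was on the list of another of the 4 genes, and the same held for the 5 listed for ARA12.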

How the data were processed

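The 14 columns of array intensity were obtained by the authors with GCOS from scanned ATH1 arrays, per the submitters' processing notes. Neither a version nor an algorithm of GCOS is given in the sources used here. The deposited intensities are linear, and the mean of each array after trimming 2% from each end is nearly the same.

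Values were used as deposited. The floor of 23.4 was taken as the median of the arrays' 20th percentiles. From 22810 probe sets, 64 controls were removed, and the filter kept those for which some group had both arrays above the respective array median (14252). Genes were named from the platform annotation and a RefSeq gene table through gene IDs: 13513 probe sets had 1 gene, 503 several and 8730 none. No sequences or coordinates are reported. The fit used limma 3.58.1 (R 4.3.3) with a coefficient for each group, all arrays and a variance trend, which left 7 residual degrees of freedom, and was tested on simulated data. Interactions are contrasts of the same fit. Loci with several probe sets take the brightest.

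The genes named are the 4 genes, every listed mucilage or marker locus with a probe set, and the 5 genes most like each of the 4. AT1G62070, AT5G63180 and AT1G20550 were given with values after these were seen. The 4 genes, the lists and the tests were chosen with earlier results of these data known. Alternatives were no floor, 3 other scalings, no filter, compartment arrays only, a replicate block and each array left out. Same-numbered arrays did not deviate together: over 21 pairs of groups the correlation of their deviations was -0.06 to 0.10.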

Additional observations from a re-analysis of the deposited data

Results flagged for a closer look

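The chalazal difference of AT2G22900 was tested between tissues, as chalazal seed coat minus seed coat, less chalazal endosperm minus the mean of micropylar and peripheral endosperm. The chalazal part was lower by -1.86 in the seed coat and differed by 0.47 in the endosperm, and the differences themselves differed by -2.32 ± 0.57 (log2, limma adjusted p = 0.0247). Of all probe sets tested 6.16% were called in this test. The call was lost under 7 of 21 alternatives, among them hybridisation control scaling (-0.90, limma adjusted p = 0.23), no filter (-2.32, limma adjusted p = 0.063) and the loss of chalazal seed coat replicate 1 (-1.67, limma adjusted p = 0.11). It was also lost without seed coat replicate 2, chalazal endosperm replicate 2, micropylar endosperm replicate 2 or peripheral endosperm replicate 1 (-2.14 to -2.08, limma adjusted p = 0.051 to 0.083). ARA12 (-0.48 ± 0.54), AT3G10320 (-0.29 ± 0.87) and AT3G50990 (0.31 ± 0.98) were not called.

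Of the other listed genes 3 were called in the same test. AT5G15740 gave -3.57 ± 0.85 (limma adjusted p = 0.0215), lost without chalazal seed coat replicate 1 (-2.60, limma adjusted p = 0.11), seed coat replicate 1 or either chalazal endosperm replicate (limma adjusted p = 0.052 to 0.068), and with hybridisation control scaling (-2.14) or no filter (limma adjusted p = 0.061 and 0.064). AT5G49180 gave -1.84 ± 0.53 (limma adjusted p = 0.049) and was lost under 19 of 21 alternatives, among them the loss of any array except chalazal seed coat replicate 2, down to -0.41 with hybridisation control scaling (limma adjusted p = 0.62). TBL38 gave 3.17 ± 0.80 in the other direction (limma adjusted p = 0.0286), lost with no filter, with compartment arrays only, and without seed coat replicate 2 (2.16), chalazal seed coat replicate 2 (2.46), either chalazal endosperm replicate, or replicate 2 of the micropylar or peripheral endosperm (limma adjusted p = 0.051 to 0.096).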

How the results depend on the processing

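Over 500 repeats of the 24 tests on the 4 genes, 462 kept direction and side of the threshold, 25 lost the call, 13 changed sign and 0 gained a call. No sign change concerned a called difference. No gene of the 4 had another probe set of its own. Scaling moved the split of calls: maternal against filial 49.2% of calls were higher, 36.9% with each array divided by its median and 21.2% with hybridisation control scaling. For seed coat these 3 shares were 52.1%, 29.7% and 5.11% against chalazal seed coat, 47.3%, 28.9% and 8.16% against peripheral endosperm, and 41.7%, 34.6% and 6.11% against whole seeds. They were 47.8%, 43.4% and 33.9% for embryo against endosperm and 56.7%, 79.9% and 96.9% for the interaction.

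With hybridisation control scaling, 5541 probe sets were called in seed coat against chalazal seed coat (2122 as deposited), 8126 against peripheral endosperm (3799), 5596 against whole seeds (3446) and 3998 for the interaction (878), which had 555 with no floor and 525 with no filter. Of the 4 genes, 0 were then called within the seed coat, 1 against whole seeds (2 with no floor) and 0 for the interaction (0 with no filter). Of the 13 listed loci 7 were called against peripheral endosperm, and of the 15 pairs of AT3G50990 5. The cause was not tested.

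Signs turned with division by the median for ARA12 (0.0024) and AT3G10320 (0.10) in the interaction, for AT3G10320 (-0.0034), AT3G50990 (-0.041) and SEU (-0.32) within the seed coat, and for SEU in maternal against filial tissue (-0.13). With hybridisation control scaling they turned for ARA12 (0.95) and AT3G10320 (0.91) in the interaction, for ARA12 (-0.19), AT1G28240 (-0.014), AT3G10320 (-0.85), AT3G50990 (-0.88) and SEU (-1.16) within the seed coat, for AT2G22900 in embryo against endosperm (-0.014), for AGL18 in seed coat against peripheral endosperm (-0.12, called as deposited at 1.42), and for SEU in maternal against filial tissue (-0.57). The cause was not tested.

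With single arrays left out, which leaves 1 array whose spread is taken from the other groups, the calls were 942 to 2167 in seed coat against chalazal seed coat, 2265 to 3961 against peripheral endosperm, 1617 to 3642 against whole seeds, 1182 to 2525 for embryo against endosperm and 405 to 1088 for the interaction. Of the 4 genes these gave 0 to 1, 3 to 4, 2 to 4, 0 to 1 and 0 to 1. Of the 13 loci they gave 2 to 6, 7 to 11 and 5 to 10 in the seed coat comparisons, in that order. Ranges that crossed 0 were -1.02 to 0.066 for ARA12 and -0.013 to 0.62 for AT3G50990 in the interaction, -0.42 to 1.03 for AT3G50990 in embryo against endosperm, -1.68 to 0.27 for AT5G04160 and -0.038 to 0.28 for SEU in maternal against filial tissue, and -0.27 to 0.37 for SEU within the seed coat.

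The replicate numbers name samples and do not pair them. With the replicate number as a block, 6416 probe sets were called in maternal against filial tissue (6377 without), 2206 in seed coat against chalazal seed coat, 3855 against peripheral endosperm, 3512 against whole seeds, 2339 for embryo against endosperm and 929 for the interaction, and no call on the 4 genes changed.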
